A study of Mus musculus with 2 samples.

Results

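The rows described here are the 6 miRNA genes Mir122, Mir375, Mir192, Mir194-1, Mir194-2 and Mir215, known from liver and from other organs of the endoderm, as measured in the mouse embryonic heart. They were found by matching the Ensembl identifiers of the 1973 gene rows to GENCODE, and all 6 had a row. The hearts came from untreated, healthy embryos of strain B6NCrl at 13.5 days, with males and females pooled, and the labels name no mutant allele. Short RNAs below 30 nucleotides were sequenced in 2 libraries from separate biosamples under a single donor record, so there is 1 group (n = 2) and no second condition. Sense-strand reads on miRNA genes numbered 5569959 in replicate 1 and 6039005 in replicate 2. Levels are given as CPM, counts per 1000000 of these totals.

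A miRNA is cut from a hairpin precursor into a single strand of about the length sequenced here, and it pairs with messenger RNAs mainly through its seed, the bases from position 2 to position 8. miR-122 is the dominant miRNA of hepatocytes, and miR-375 marks endocrine cells of the pancreas, gut and pituitary. miR-192, miR-194 and miR-215 are abundant in liver, gut and kidney, and are made from shared primary transcripts at separate loci that each carry a miR-194 hairpin. The liver, lungs and foregut lie near the heart at this stage. The labels do not say how far the dissected hearts were freed of them.

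The loci are given on mm10 with the annotation of GENCODE M21. Mir375 (ENSMUSG00000065616.2) lies on chromosome 1 from 74900658 to 74900721 on the minus strand, in no other gene, 1349 nucleotides from the nearest protein-coding gene, Cfap65. Mir194-2 (ENSMUSG00000065582.1, chromosome 19, 6264643 to 6264728) and Mir192 (ENSMUSG00000065523.1, 6264844 to 6264932) lie 115 nucleotides apart on the plus strand, in no other annotated gene. Mir194-1 (ENSMUSG00000065581.1, chromosome 1, 185313319 to 185313385) and Mir215 (ENSMUSG00000065562.1, 185313581 to 185313692) lie 195 nucleotides apart on the plus strand. Both are inside the noncoding gene 2010103J01Rik, Mir194-1 in an intron and Mir215 in an exon, and both lie opposite to an intron of Iars2, which encodes a mitochondrial tRNA synthetase.

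The mature sequences below show which members can act through the same seed and which of them a short read cannot tell apart. They are from RefSeq on GRCm38.p6, where 5 of the 6 members matched, and capitals mark the seed.
miR-192-5p: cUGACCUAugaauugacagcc
miR-215-5p: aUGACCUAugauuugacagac
miR-194-5p: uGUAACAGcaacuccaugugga
miR-194-1-3p: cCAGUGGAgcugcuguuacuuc
miR-194-2-3p: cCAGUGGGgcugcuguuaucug
miR-192-5p and miR-215-5p share their seed and 18 of 21 bases. Written with the base of miR-192-5p first and counted from 1 at the 5′ end, they differ by C1A, A12U and C20A. Among the 1738 mature rows of the RefSeq table no other name carries that seed. miR-194-5p is the same at both of its loci, whereas the opposite arms differ by A8G, C19U, U20C and C22G, with the base of miR-194-1-3p first.

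In the hairpins of the miR-194 pair the run they share is in capitals. The hairpin of Mir375 is shown whole and in lower case.
Mir194-1: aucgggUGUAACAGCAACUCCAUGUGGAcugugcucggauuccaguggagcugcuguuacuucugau
Mir194-2: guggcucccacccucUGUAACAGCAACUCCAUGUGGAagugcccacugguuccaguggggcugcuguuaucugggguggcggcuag
Mir375: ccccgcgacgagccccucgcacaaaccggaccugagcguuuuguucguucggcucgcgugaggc
The run common to Mir194-1 and Mir194-2 is 22 nucleotides long, the whole length of miR-194-5p. The longest run that Mir192 and Mir215 have in common is 10 nucleotides. For Mir122, Mir375, Mir192 and Mir215, no annotated miRNA gene on either strand shares a run over 13 nucleotides. Reads that map to several places form their own class in the deposited tables, 26.9% of reads in replicate 1 and 28.0% in replicate 2. No source states whether such reads are also in gene rows. If they are not, reads of miR-194-5p are in neither of its rows, and the rows of Mir194-1 and Mir194-2 are lower bounds. The same limit then holds for other miRNAs made at several loci, among them the Mir7-1, Mir7-2 and Mir124a rows named below.

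The liver and endoderm rows were present at low to middling levels. Together they took 0.0812% of sense counts in replicate 1 (exact 95% Clopper-Pearson interval 0.0789 to 0.0836) and 0.134% in replicate 2 (0.131 to 0.137), a mean of 0.108% ± 0.0373 (SD, n = 2). PCR copies are not separate molecules, so intervals and limits here hold counting error and nothing else. The 3 myosin-intron miRNAs of cardiomyocytes, Mir208a, Mir208b and Mir499, took 5.07% in replicate 1 and 5.34% in replicate 2, so heart muscle miRNAs were abundant in tissue labelled as heart. They held 62.4 times the counts of the liver and endoderm rows in replicate 1 and 39.8 times in replicate 2. In bulk tissue, fewer cells of a type and less RNA per cell cannot be told apart.

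Mir122 (ENSMUSG00000065402.1, chromosome 18, 65248861 to 65248926, plus strand) lies in an exon of the noncoding gene AC157910.3. It held 1122 counts (201 CPM) in replicate 1 and 3568 counts (591 CPM) in replicate 2. By level it ranked 145 of the 1973 rows in replicate 1 and 99 in replicate 2. Its mean was 396 ± 275 CPM (SD, n = 2), the widest spread of the 6 rows. Mir375 held 1676 counts (301 CPM) in replicate 1 and 2846 counts (471 CPM) in replicate 2, a mean of 386 ± 120 CPM. Both rows were thus higher in replicate 2, Mir122 by more.

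Mir215 held 1137 counts (204 CPM) in replicate 1 and 1009 counts (167 CPM) in replicate 2, a mean of 186 ± 26.2 CPM. Mir192, with which it shares its seed, held 324 and 325 counts, or 58.2 CPM in replicate 1 and 53.8 CPM in replicate 2 (mean 56.0 ± 3.08 CPM). The rows of the miR-194 pair were the lowest and were both higher in replicate 2. Mir194-2 held 175 counts (31.4 CPM) in replicate 1 and 229 counts (37.9 CPM) in replicate 2. Mir194-1 held 91 counts (16.3 CPM) in replicate 1 and 117 counts (19.4 CPM) in replicate 2. Their means were 34.7 ± 4.60 CPM for Mir194-2 and 17.9 ± 2.15 CPM for Mir194-1. All 6 rows lay far above the limit that a count of 0 allows, which is 3 counts, or 0.539 CPM in replicate 1 and 0.497 CPM in replicate 2.

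**Figure D1:**
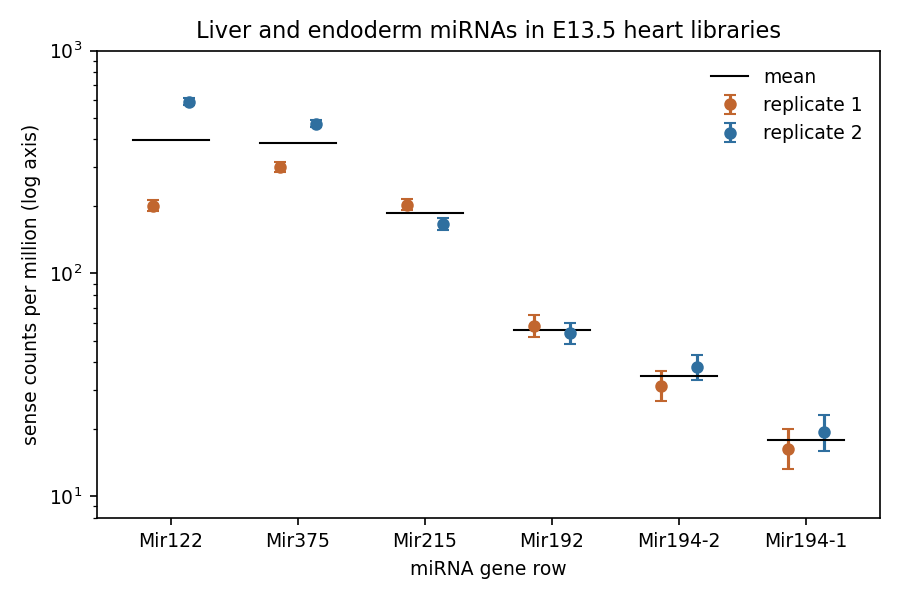
Sense CPM (log axis) of the 6 rows in order of their mean, with replicate 1 left of replicate 2, bars for the exact Poisson 95% interval of the count and a line for the mean. The libraries stand far apart at Mir122 (201 and 591 CPM) and close together at Mir192 (58.2 and 53.8 CPM).

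By mean the order was Mir122, Mir375, Mir215, Mir192, Mir194-2 and Mir194-1. The first 2 did not differ beyond their spread. Mir122 had 0.669 times the counts of Mir375 in replicate 1, with an exact 95% interval of 0.620 to 0.722. In replicate 2 the ratio was 1.25 (1.19 to 1.32), for a log2 ratio of -0.13 ± 0.640 (SD, n = 2). Mir122 also equalled Mir215 within counting error in replicate 1, at a count ratio of 0.987 (0.908 to 1.07), and was 3.54 times as high in replicate 2 (3.30 to 3.80). Mir375 exceeded Mir215 in both libraries, by 1.47-fold in replicate 1 (1.37 to 1.59) and by 2.82-fold in replicate 2 (2.62 to 3.03). The place of Mir122 therefore differed between the libraries, being 3 in replicate 1 and 1 in replicate 2, while the order of the other 5 rows was the same.

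Within the miR-192, miR-194 and miR-215 group the ratios were steadier. Mir215 held 3.51 times the counts of Mir192 in replicate 1 (3.10 to 3.98) and 3.10 times in replicate 2 (2.74 to 3.53), a log2 ratio of 1.72 ± 0.125. Mir194-2 held 1.92 times the counts of Mir194-1 in replicate 1 (1.48 to 2.51) and 1.96 times in replicate 2 (1.56 to 2.47), a log2 ratio of 0.96 ± 0.0180. In both pairs the intervals of the libraries overlapped.

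The rows of hairpins that lie beside each other on a chromosome also differed. Mir192 exceeded Mir194-2, its neighbour on chromosome 19, by 1.85-fold in replicate 1 (1.54 to 2.24) and by 1.42-fold in replicate 2 (1.19 to 1.69). Mir215 exceeded Mir194-1, its neighbour on chromosome 1, by 12.5-fold in replicate 1 (10.1 to 15.6) and by 8.62-fold in replicate 2 (7.12 to 10.5). In each library the chromosome 1 pair was the more unequal of the pairs. Summed over both hairpins, the chromosome 1 locus held 220 CPM in replicate 1 and 186 CPM in replicate 2 (mean 203 ± 24.1 CPM). The chromosome 19 locus held 89.6 CPM in replicate 1 and 91.7 CPM in replicate 2 (mean 90.7 ± 1.52 CPM). If miR-194-5p reads are in no gene row, these sums leave them out and the ratios over Mir194-1 and Mir194-2 are upper bounds, so the order of the mature miRNAs is not known from them.

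**Figure D2:**
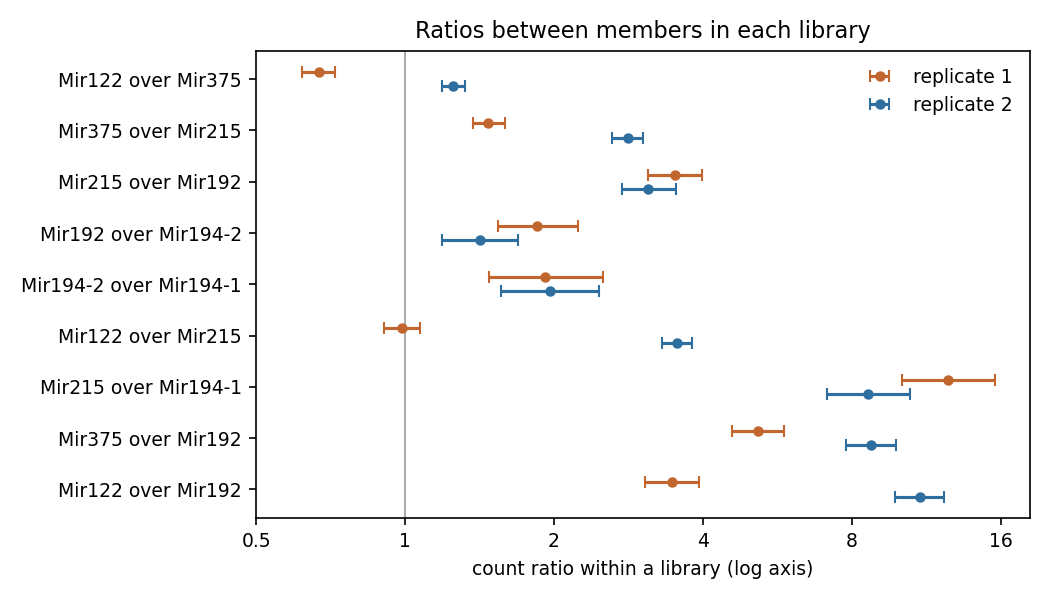
Count ratio of 1 member over another within each library (log axis), with exact 95% intervals from the counts. Ratios with Mir122 or Mir375 on top differ between the libraries (Mir122 over Mir215 is 0.987 and 3.54), whereas Mir194-2 over Mir194-1 is 1.92 and 1.96.

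The make-up of the counts on the 6 rows followed Mir122. It took 24.8% of them in replicate 1 and 44.1% in replicate 2, with exact 95% intervals of 23.5 to 26.1 and 43.0 to 45.2. Mir375 took 37.0% in replicate 1 (35.6 to 38.5) and 35.2% in replicate 2 (34.1 to 36.2), and these intervals overlapped. The share of Mir215 was 25.1% in replicate 1 and 12.5% in replicate 2. With Mir122 left out, the remaining 5 rows took 0.0611% of all sense counts in replicate 1 and 0.0749% in replicate 2. With Mir375 also left out, the remaining 4 rows took 0.0310% in replicate 1 (0.0296 to 0.0325) and 0.0278% in replicate 2 (0.0265 to 0.0292). The higher sum in replicate 2 was thus carried by the rows of Mir122 and Mir375.

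**Figure D3:**
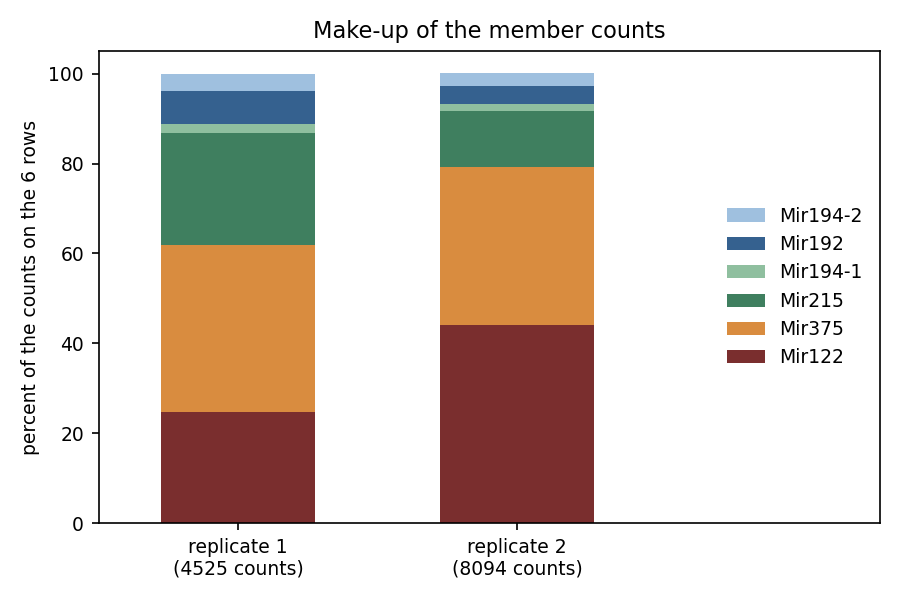
Percent of the counts on the 6 rows taken by each, as stacked bars from 0 for replicate 1 (4525 counts) and replicate 2 (8094 counts). Mir122 fills 24.8% of the first bar and 44.1% of the second, and Mir215 fills 25.1% and 12.5%.

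Differences between the libraries were read against the 288 genes whose mean reached 10 CPM, which include all 6 members. Counts were compared with a two-sided exact binomial test and Benjamini-Hochberg adjustment over these genes. A gene was called where the adjusted p was under 0.05 and the ratio, with 1 CPM added to both values, reached 1.5. What is compared is a pair of libraries and their reads, not conditions. Of the 6 members, 2 were called, Mir122 and Mir375, against 5.90% of all genes tested. Both were lower in replicate 1, where 1.04% of all genes were called. None was called higher in replicate 1, where 4.86% of all genes were. An adjusted p under 0.05 at any ratio was reached by 3 of 6 members, against 61.5% of all genes, 2 of them lower in replicate 1 (18.4% of all genes) and 1 higher (43.1% of all genes).

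Mir122 had a ratio of replicate 1 over replicate 2 of 0.341 (exact 95% interval 0.319 to 0.365; log2 -1.55, adjusted p = 1.46e-250, exact binomial test), the lowest of the 288 genes and 1 of 2 that also passed a ratio of 2. Mir375 had a ratio of 0.638 (0.601 to 0.678; log2 -0.65, adjusted p = 1.62e-48, exact binomial test), the third from the lowest. Its call rests on the threshold: scaled to the cardiomyocyte miRNAs in place of all sense counts, its log2 ratio was -0.57, short of a ratio of 1.5, while that of Mir122 was -1.47. Per 1000 cardiomyocyte miRNA counts, Mir122 held 3.97 in replicate 1 and 11.1 in replicate 2, and Mir375 held 5.93 in replicate 1 and 8.83 in replicate 2.

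The other 4 members were not called. Mir215 was higher in replicate 1 (ratio 1.22, 1.12 to 1.33; adjusted p = 9.91e-06, exact binomial test), below the ratio of 1.5 and opposite in direction to Mir122 and Mir375. Mir192 had a ratio of 1.08 (0.924 to 1.26), Mir194-1 of 0.843 (0.634 to 1.12) and Mir194-2 of 0.829 (0.677 to 1.01), all with intervals that hold 1. The median log2 ratio was -0.25 over the 6 members and 0.10 over all 288 genes, and 90% of all genes lay between -0.31 and 0.55. TMM scaling moved the median of all genes to 0 and lowered each member by the same step. The values were -1.65 for Mir122, -0.75 for Mir375, 0.18 for Mir215, 0.01 for Mir192, -0.33 for Mir194-1 and -0.36 for Mir194-2. The adjusted p of Mir194-2 (exact binomial test) was 0.0995 on sense totals, 0.0183 with TMM and 0.0160 with DESeq2 scaling. It stayed below a ratio of 1.5 under each. DESeq2 size factors, which were equal for both libraries, turned the sign of Mir192. Calls over all genes were 14 higher and 3 lower in replicate 1 on sense totals, and 8 in each direction with TMM or DESeq2 scaling, with 11 genes in common with the 17.

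**Figure D4:**
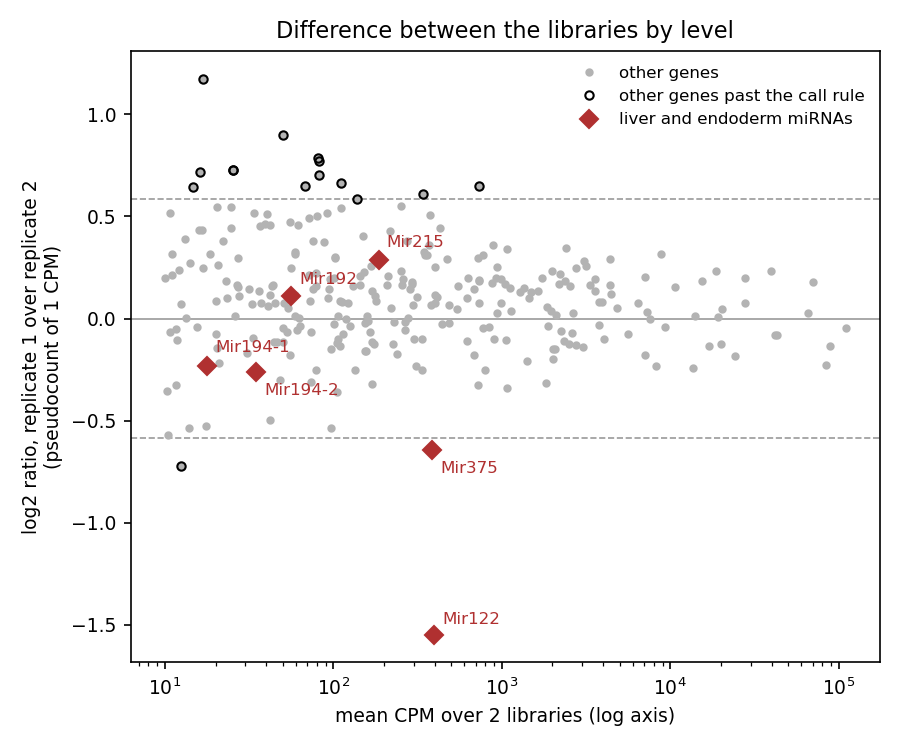
Log2 ratio of replicate 1 over replicate 2 against mean CPM (log axis) for the 288 genes tested, with the 6 members as diamonds, other called genes ringed and dashed lines at a ratio of 1.5 in each direction. Mir122 lies alone at -1.55, Mir375 lies just past the lower line, and the other 4 members lie inside both lines.

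The genes nearest to the members in level over the 2 libraries were found by Euclidean distance of log2(CPM + 1), a likeness that rests on 2 points. The gene nearest to Mir122 was Mir375, at a distance of 0.662, followed by Mir671 (309 CPM in replicate 1 and 368 CPM in replicate 2) at 0.917. Mir375 lay closer to Mir671 (0.359) than to Mir122. Mir192 had close matches in Mir331, Mir106a and Mir301b, all within 0.111. Mir215 lay within 0.197 of Mir669l, Mir1306 and Mir196b. The nearest gene to Mir194-2 was Mir452 (0.134) and to Mir194-1 it was Mir3061 (0.217). The distance follows level, so the level gaps between cluster neighbours given above already set them apart. It does not show whether neighbours vary together. Besides Mir122 and Mir375, the genes with the lowest ratios of replicate 1 over replicate 2 were Mir758 (9.16 CPM in replicate 1 and 15.7 CPM in replicate 2), Mir3475 (8.26 and 12.8 CPM in the same order) and Mir206, known from skeletal muscle (79.5 and 116 CPM). At the other end were Mir6240 (log2 1.18), Mir146 (0.90), Mir615 (0.79), Mir6236 (0.77) and Mir294 (0.73), all called.

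Other miRNAs known from the organs beside the heart were set against the members. Of 5 further hepatocyte miRNAs listed, 3 were matched to a row. Mir148a held 784 CPM in replicate 1 and 689 CPM in replicate 2, Mir101b held 1319 and 1522 CPM in the same order, and Mir802, known from liver and pancreas, held 4.31 and 3.48 CPM. The list had a log2 ratio of -0.07 in summed counts, against -0.72 for the 6 liver and endoderm rows. Of its 2 tested members 0 were called, against 5.90% of all genes tested, a share at which few calls are possible among 2 rows. Mir148a and Mir101b are also expressed in many other tissues. Mir148a was higher in replicate 1 (log2 0.19) and Mir101b in replicate 2 (log2 -0.21), both within a ratio of 1.5.

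Among pancreatic miRNAs, Mir216a, Mir216b and Mir217, known from acinar cells, held between 1 and 10 counts in a library, close to the limit of the depth. Of the miR-7 rows, known from endocrine and neural cells, Mir7-1 held 46.1 CPM in replicate 1 and 41.1 CPM in replicate 2. Mir7b was called higher in replicate 1 (20.3 against 11.9 CPM in replicate 2, log2 0.72, adjusted p = 8.46e-04, exact binomial test), where Mir375 was lower. This was 1 of 2 tested rows of the list, against 4.86% of all genes called in that direction. Mir7-2 held 13 counts in replicate 1 and 22 in replicate 2, a log2 ratio of -0.48. Mir216b (-0.21) and Mir217 (-0.23) also had log2 ratios below 0, and all 3 rows lay under the 10 CPM needed for the test. The liver and endoderm rows together held 11.5 times the counts of the pancreatic list in replicate 1 and 22.5 times in replicate 2. These sums include the Mir122 row, with 1122 counts in replicate 1 and 3568 in replicate 2. The limit given above for Mir7-1 and Mir7-2 holds for the list.

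Among miRNAs of the airway, whose multiciliated cells carry the miR-34 and miR-449 family, Mir34c led at 436 CPM in replicate 1, against 444 CPM in replicate 2, a log2 ratio of -0.03. Mir449a held 28.5 CPM in replicate 1 and 20.7 CPM in replicate 2, and Mir34b held 18.5 and 15.4 CPM in the same order. Mir449b and Mir449c each held 1 count in replicate 1 and 0 in replicate 2, so the list rested mainly on Mir34c. None of the 3 tested members was called, against 5.90% of all genes tested. The epithelial list, the miR-200 family with Mir203 and Mir205, took 0.243% of counts in replicate 1 and 0.190% in replicate 2 (log2 0.36). All 7 of its rows had a log2 ratio above 0, as did 65.6% of all genes tested. Mir205, a miRNA of stratified epithelium, was called higher in replicate 1 at 166 against 111 CPM, 1 of 7 rows against 4.86% of all genes. With TMM scaling 49.3% of all genes lay above 0 and with DESeq2 scaling 46.0%. Under both, 6 of 7 epithelial rows lay above 0, with Mir141 at -0.03 and -0.04 (0.08 on sense totals), and Mir205 was not called.

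The fetal liver is the main site of red cell formation at this stage. All 3 erythroid rows had a log2 ratio above 0 under each scaling. Of all genes tested, 65.6% lay above 0 on sense totals, 49.3% with TMM and 46.0% with DESeq2 scaling. Of the 3 rows, 1 was called higher in replicate 1, where 4.86% of all genes were called. Mir451a held 858 CPM in replicate 1 and 692 CPM in replicate 2, Mir144 held 301 and 205 CPM, and Mir486 held 102 and 61.9 CPM. The called row was Mir486 (log2 0.71, adjusted p = 2.54e-13, exact binomial test). Of 4 leukocyte miRNAs listed, Mir142 was not matched to a row. Among the 3 rows, Mir223, a myeloid miRNA, held 441 CPM in replicate 1 and 310 CPM in replicate 2. Mir146 was called higher in replicate 1, 1 of 3 rows against 4.86% of all genes, and Mir155 had a log2 ratio of -0.16. The liver and endoderm rows had 0.644 times the summed counts of the erythroid rows in replicate 1 and 1.40 times in replicate 2. The part of neighbouring tissue or of blood in the difference at Mir122 was not tested, and with 1 library from each biosample, a difference between biosamples and one between libraries cannot be told apart.

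**Figure D5:**
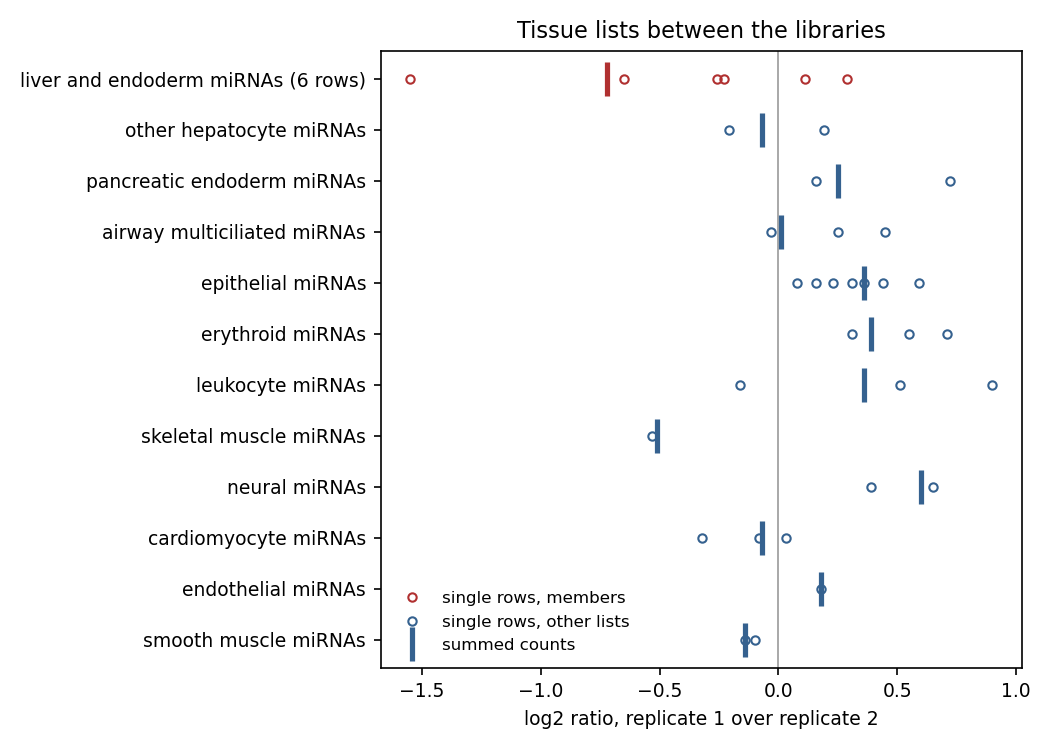
Log2 ratio of replicate 1 over replicate 2 for the liver and endoderm rows (top, red) and for 11 other lists (blue), with a circle for each row at 10 CPM or more and a bar for the summed counts. The bar of the liver and endoderm rows lies at -0.72 and spans rows from -1.55 to 0.29, while the epithelial, erythroid and leukocyte bars lie between 0.36 and 0.39. The skeletal muscle bar lies at -0.51, on the side of the liver and endoderm rows, and the neural bar at 0.60.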

How the data were processed

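The deposited tables hold raw read counts per miRNA gene of each library, which the authors obtained on mm10 with the gene models of GENCODE M4, as their deposited notes say. Aligner, counter and trimming: not given in the sources used here. Sense counts were used. The 4 read classes (unmapped 21.2% and 17.2%, multi-mapping 26.9% and 28.0%, outside any miRNA gene 3.60% and 2.92% of reads in replicates 1 and 2, and ambiguous) stayed out of totals and tests.

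GENCODE M21, also on mm10, gave symbols to 1894 of 1973 identifiers. The members and the 11 lists (48 symbols, 43 with a row) were chosen with earlier results of these data known. Named genes were the members, list rows at 10 CPM or more, the 5 lowest and 5 highest ratios and the 3 nearest genes to each member; list rows below 10 CPM were named after their values were seen. The exact conditional binomial test used sense totals as offset with Benjamini-Hochberg adjustment over 288 genes. It was tried on simulated Poisson counts, which hold counting error and no variation between biosamples or libraries. That trial checks the calculation and does not bear on the calls made here. Python 3.11.15, scipy 1.17.1, numpy 2.4.6, pandas 2.3.3, edgeR 4.0.16 (TMM factors) and DESeq2 1.42.0 (size factors) in R 4.3.3 were used, with plots in matplotlib 3.10.9. Alternatives changed scaling, strand, the CPM minimum, the pseudocount, the ratio, the total and the libraries used.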

Additional observations from a re-analysis of the deposited data

Results flagged for a closer look

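Counts on the strand opposite to Mir122 were looked at because no comparison above uses them. The row of Mir122 held 6 such counts beside 1122 sense counts in replicate 1, and 10 beside 3568 in replicate 2. GENCODE M21 lists no gene on that strand at the locus. Over all rows, counts on both strands came to 5860494 in replicate 1 and 6369018 in replicate 2. The sense totals were 5569959 and 6039005 in the same order. Opposite-strand counts were thus a smaller share at Mir122 than over all rows, and are not read as a transcript. The other 5 member rows held 0 opposite-strand counts in both libraries.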

How the results depend on the processing

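No paired analysis was possible because there is 1 group and no second condition. The call of Mir122 and its direction held under every scaling, filter, pseudocount and ratio tried. Mir375 kept its direction throughout and lost its call at a ratio of at least 2 (log2 -0.65) and, in an alternative added after seeing the data, with scaling to the cardiomyocyte list (log2 -0.57). DESeq2 size factors came out equal for both libraries, so that scaling compared raw counts without correction for depth. It gave Mir192 a log2 ratio of -0.00437. Without Mir335, the most abundant gene, the total is smaller by construction: mean levels became 62.9 CPM for Mir192 and 20.1 CPM for Mir194-1, and list shares became 0.243% for other hepatocyte, 0.0542% for airway, 5.85% for cardiomyocyte, 7.92% for endothelial and 10.04% for smooth muscle miRNAs. Counting both strands, which enlarges the total, gave 0.205% for other hepatocyte, 0.0458% for airway and 4.94% for cardiomyocyte miRNAs. Over all genes the 17 calls became 39 with a minimum of 1 CPM, 45 with no minimum and 2 at a ratio of 2, by the number of genes tested or the stricter rule. With 2 libraries, leaving out either gives the level of the other: 201 to 591 CPM for Mir122, 301 to 471 CPM for Mir375 and 0.0812% to 0.134% for all 6 rows. Rows under about 100 counts, such as Mir194-1 in replicate 1, carry wide counting intervals.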

Other observations

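Skeletal muscle miRNAs took 0.00833% of counts in replicate 1 and 0.0118% in replicate 2, and neural miRNAs 0.0106% and 0.00697% in the same order. The skeletal muscle miRNA Mir206 held 79.5 CPM in replicate 1 and 116 CPM in replicate 2 with a log2 ratio of -0.53; it was not called on sense totals and was called under TMM (-0.64) and DESeq2 (-0.65) scaling. The other skeletal muscle row, Mir133b, held 21 counts in replicate 1 and 17 in replicate 2, a log2 ratio of 0.32. Of the 8 neural rows, 4 held no count in either library, among them all 3 rows of Mir124a, known from neurons. Empty rows were common, as 692 of all 1973 rows held a count in either library. The limit given above for miRNAs made at several loci holds for the Mir124a rows. Mir137 was called higher in replicate 1, at 83.1 CPM against 52.7 CPM in replicate 2, on sense totals and not under TMM or DESeq2 scaling. This was 1 of 2 tested neural rows, against 4.86% of all genes called in that direction on sense totals. Smooth muscle miRNAs, with Mir143 in front, took 8.51% of counts in replicate 1 and 9.35% in replicate 2. Mir126a of endothelium took 7.49% in replicate 1 and 6.60% in replicate 2.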
